A study of Mus musculus with 2 samples.

Results

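The cytochrome P450 family was followed in MMP-14 knockout and wild-type mouse liver. Its members were taken by symbol, as every gene on the array named Cyp with a number, a letter and a number, with the sterol demethylase Cyp51 left out. This gave 61 genes, read by 64 probes, of 16390 named genes and 23473 gene probes in all. MMP-14 is a metalloproteinase anchored in the cell membrane. A first array set MMP-14 knockout against wild-type whole liver, with RNA of 2 livers per genotype mixed. The sample labels call this liver P1, the day after birth, whereas the design text gives E18.5, shortly before birth. The conflict was not settled, and the name P1 liver follows the label. A second array set knockout against wild-type fetal liver cells sorted as positive for Dlk and negative for CD45, CD71 and Ter119, which removes blood cells. The cells are labelled E14 in the samples and E14.5 in the design text, with RNA of 100000 cells from 3 livers per genotype. Strain, sex and the knockout allele are not given in the sources used here. Knockout RNA carried the dye Cy3 and wild-type RNA the dye Cy5 on both arrays, with no dye swap. Each comparison was made on 1 array of pooled RNA, so there is no error between animals and no test was possible. An effect of the dye on a single gene and an effect of genotype cannot be told apart.

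Cytochrome P450 enzymes are haem proteins that insert an oxygen atom into their substrates, with electrons delivered by a reductase in the endoplasmic reticulum or by ferredoxin in mitochondria. Hepatocytes are their main site in the body. Members of the Cyp1, Cyp2 and Cyp3 families oxidise drugs and other foreign compounds, while others build bile acids, hydroxylate fatty acids, make steroid hormones, or activate and degrade vitamin D and retinoic acid. In rodents many hepatic P450 genes are silent or low in the fetal liver and switch on around birth, driven by hepatocyte transcription factors and by nuclear receptors that sense bile acids, lipids and foreign compounds.

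By role, the 61 members comprised 30 drug and xenobiotic genes, 15 fatty acid genes, 6 genes of bile acid and oxysterol synthesis, 4 of steroid hormone synthesis, 3 of vitamin D and 2 of retinoic acid metabolism, with Cyp20a1, whose substrate is not settled, left alone. A channel counted as detectable above the mean of the blank spots plus 2 SD. These thresholds, in intensity units of the scanner, were 87.0 for knockout and 50.5 for wild type with P1 liver, and 85.1 for knockout and 44.3 for wild type with E14 cells. On the P1 array 51 members were detectable in both channels, 3 in the knockout channel only and 7 in neither. On the E14 array 48 were detectable in both, 4 in the knockout channel only and 9 in neither. No member was detectable in the wild-type channel only. The knockout channel read higher than the wild-type channel for the typical gene, with medians of 113 in knockout and 73.4 in wild type for P1 liver and 122 in knockout and 58.5 in wild type for E14 cells. A raw knockout signal equal to the wild-type one therefore corresponds to a normalised ratio below 0. Probes differ in brightness, so a higher signal of one gene than of another does not show more RNA of it.

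**Figure D1:**
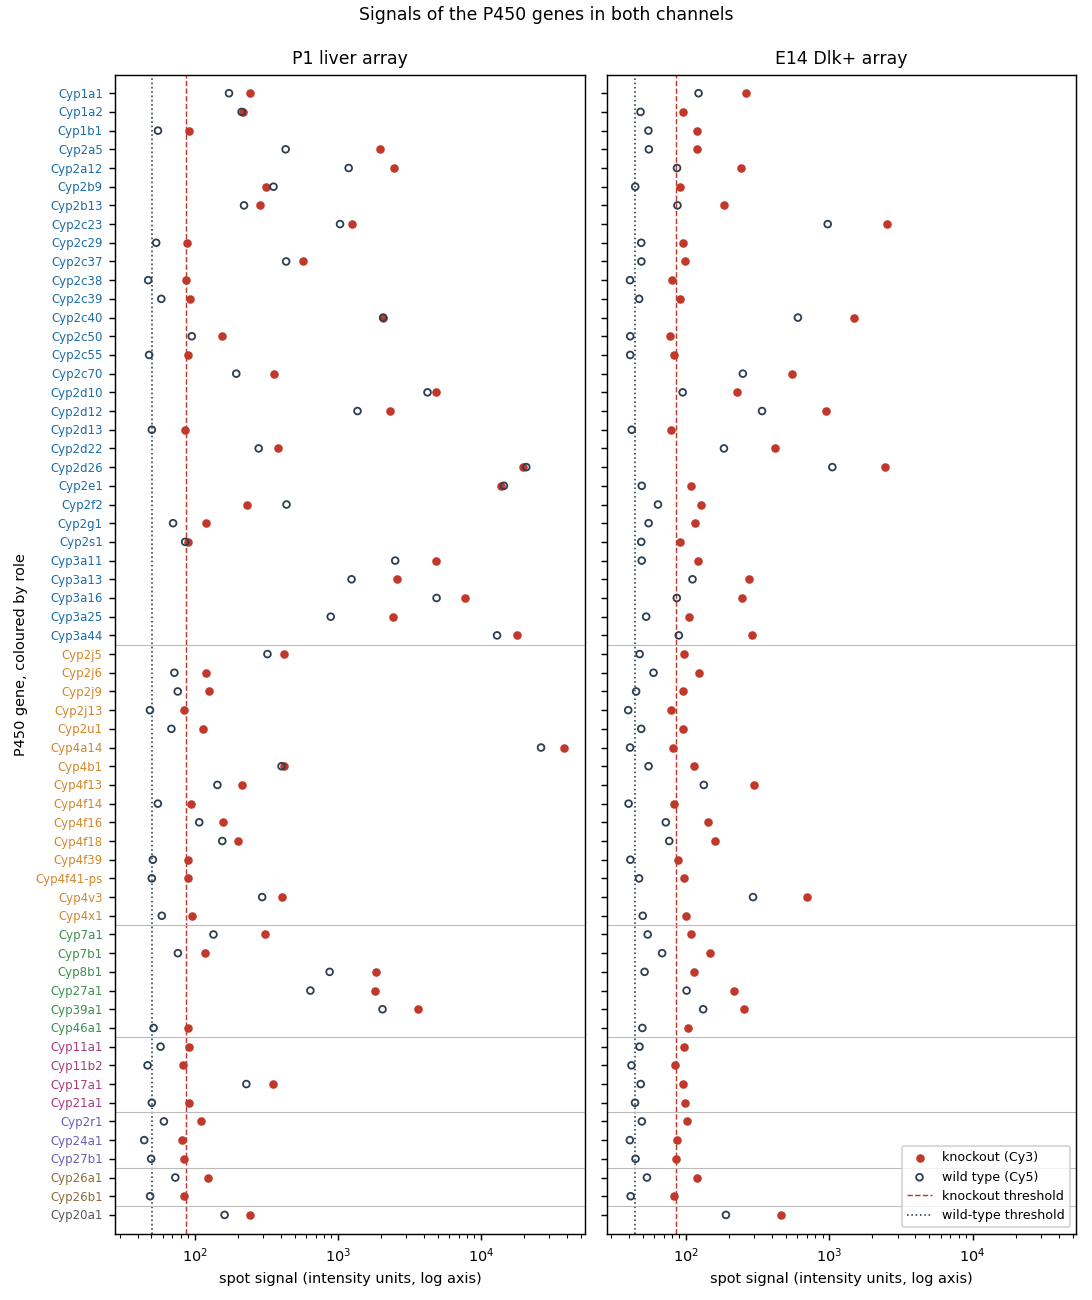
Spot signals of all 61 P450 genes in intensity units on a log axis, P1 liver at left and E14 Dlk+ cells at right, with knockout as filled and wild type as open circles and the detection thresholds as vertical lines. Each point is 1 channel of 1 array, averaged over the probes of a gene, and Cyp4a14 is the brightest member on P1 while it lies below both thresholds on E14.

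The targeted gene checks the labels. Mmp14 had signals of 104 in knockout and 161 in wild-type P1 liver and a log2 ratio of -1.30, and 132 in knockout and 131 in wild-type E14 cells with a ratio of -1.13. Hepatocyte markers were present on both arrays, with 16 of 16 detectable in every channel. Lung genes stood apart on the P1 array. Of 18 lung epithelial markers 12 were detectable in knockout and 18 in wild-type RNA, with a summed signal above blank of 899 in knockout and 44893 in wild type, and 10 of the 12 detectable in both fell below the knockout line of 1.5-fold used for the P450 genes. For the E14 array the same sums were 569 in knockout and 237 in wild type. None was past 1.5-fold there, against 0.307% of all genes higher and 0.22% lower. In bulk RNA, fewer cells of a type and less RNA per cell cannot be told apart.

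In P1 liver the family went both ways. Members are counted as higher or lower when the normalised knockout over wild-type ratio reached 1.5-fold, which is 0.585 on the log2 scale used for all ratios. Higher in the knockout were 4 of 51 members (7.84%), against 2.85% of all 12715 genes detectable in both channels. Lower were 6 of 51 (11.8%), against 4.12% of all genes. The median of the 51 ratios was -0.01, with 24 above 0, and the median of all genes was -0.0018. In E14 cells 0 of 48 members were higher, against 0.307% of 12705 genes, and 0 were lower, against 0.22%. These counts of 0 rest on the processing, since the authors' deposited table gave 4 higher and 1 lower, subtraction of the blank mean 3 and 2, an offset of 16 gave 1 higher and median centring 9. Cyp3a44 was higher in all 4 of these. With median centring the E14 median of all genes was itself 0.29, above the 0.03 of the members. Shares of all genes past 1.5-fold in these 4 processings are not given, so their counts show only how the 0 depends on the processing. The E14 median was 0.01 for members and 0.0068 for all genes. The 4 higher members on P1 were Cyp2a5, Cyp27a1, Cyp3a25 and Cyp7a1. The 6 lower ones were Cyp2f2, Cyp2d26, Cyp2e1, Cyp2b9, Cyp2c40 and Cyp2s1. The direction of all 10 was the same in 7 ways of processing, whereas the size of several was not, as given gene by gene. Normalisation added an offset of 50 to every signal, so ratios of dim genes are understated, and values of the authors' deposited table are therefore quoted for the main genes.

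**Figure D2:**
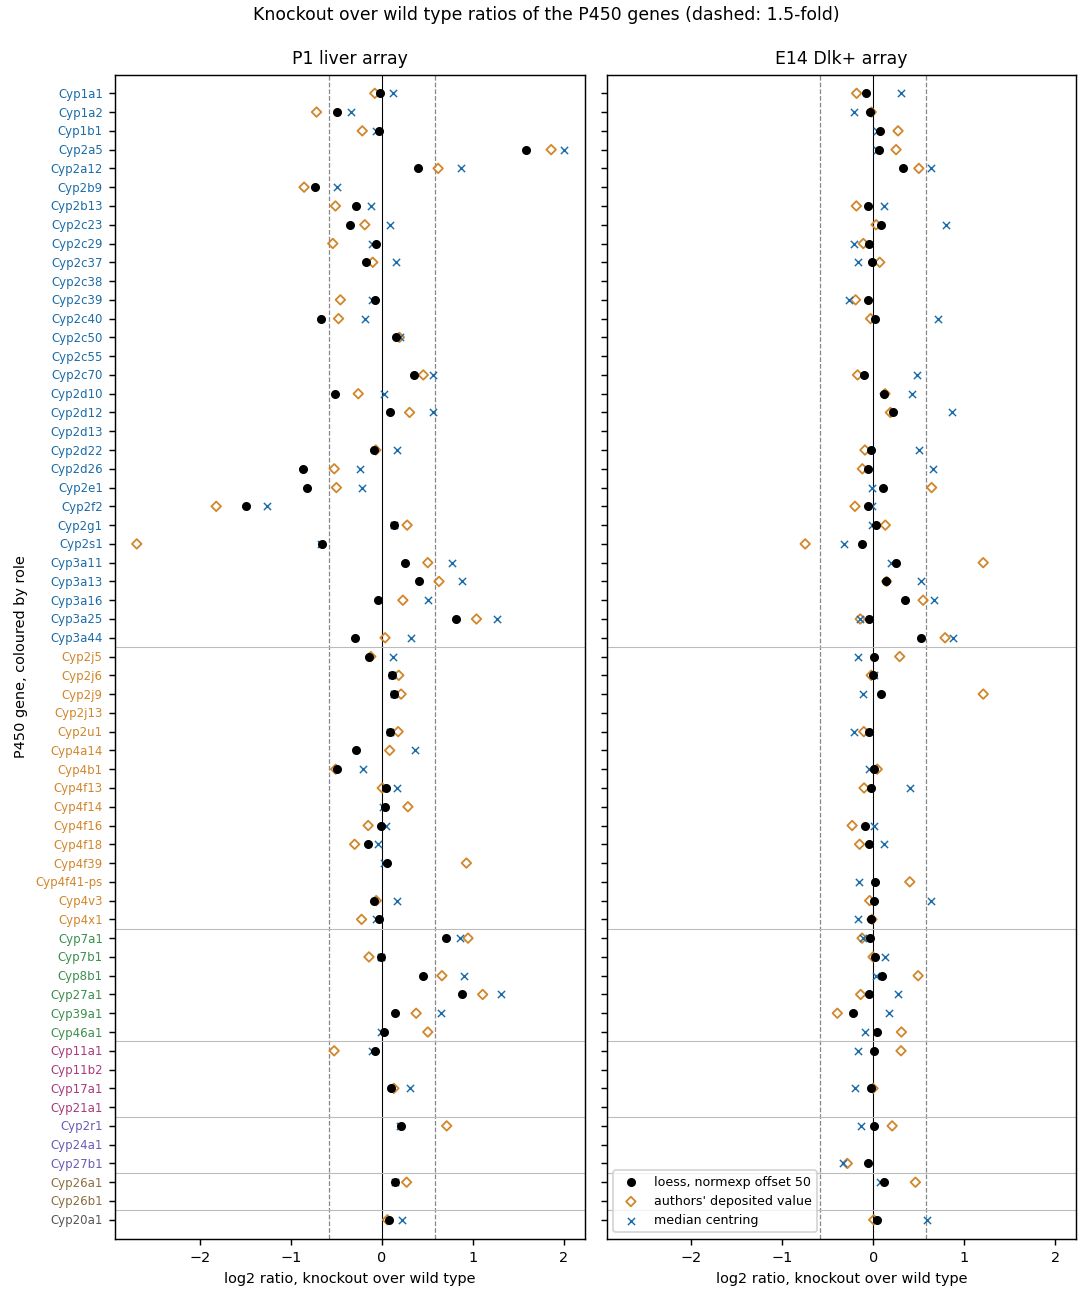
Log2 ratios of knockout over wild type for each P450 gene detectable in both channels, P1 liver at left and E14 Dlk+ cells at right, from loess normalisation (filled circles), the authors' deposited table (diamonds) and median centring (crosses), with dashed lines at 1.5-fold. On the E14 array no filled circle passes the dashed lines, and on P1 the bright members such as Cyp2d26, Cyp2e1 and Cyp4a14 lie further right with median centring than with loess.

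Bile acid synthesis genes included 2 of the 4 higher members. Of these 6 genes 2 were thus higher, against 2.85% of all genes, and 0 lower, against 4.12%. With 6 genes a count of 0 is close to that share. Their median ratio on P1 was 0.30, with 5 of 6 above 0, beside -0.0018 for all genes. Cyp7a1 encodes the rate-limiting enzyme that opens the classic route from cholesterol to bile acids. It read 311 in knockout and 136 in wild-type P1 liver, a ratio of 0.71 (0.95 in the authors' deposited table). Over the 7 processings its ratio ranged between 0.42 and 0.98 and reached 1.5-fold in 6. Cyp27a1 encodes the mitochondrial sterol hydroxylase of the alternative route, which also cleaves the side chain in the classic one. It read 1819 in knockout and 644 in wild-type P1 liver, a ratio of 0.89 (1.11 in the authors' deposited table). Cyp8b1, the enzyme that sets the share of cholic acid, read 1855 in knockout and 877 in wild type. Its ratio of 0.45 lay below the 1.5-fold line in this processing, and above it in the authors' deposited table (0.66).

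The oxysterol branch stayed within 1.5-fold. Cyp39a1, an oxysterol hydroxylase of liver, read 3605 in knockout and 2052 in wild-type P1 liver, with a ratio of 0.14. Cyp7b1, the oxysterol hydroxylase that follows Cyp27a1 in the alternative route, read 118 in knockout and 76.6 in wild type, with a ratio of -0.01. Cyp46a1, the cholesterol hydroxylase known from neurons, was close to the thresholds at 89.8 in knockout and 51.8 in wild type. In E14 cells all 6 were detectable in both channels, and their ratios lay between -0.23 and 0.10. The lowest was Cyp39a1, with 254 in knockout and 132 in wild type. Cyp7a1 at this stage read 108 in knockout and 54.1 in wild type, close to the thresholds, with a ratio of -0.04.

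Genes of the bile acid pathway outside the family give the setting. Of 23 transporters, enzymes and regulators detectable in both channels of the P1 array, 3 were at least 1.5-fold higher, against 2.85% of all genes, and 1 was lower, against 4.12%, with a median of 0.10. The higher ones were Abcg5, a sterol exporter of the canalicular membrane, at 1.37 (903 in knockout and 240 in wild type), the canalicular export pump gene Abcc2 at 0.72 (3074 in knockout and 1190 in wild type), and Slco1b2, an uptake transporter of hepatocytes, at 0.67. Akr1c6 was lower, at -0.72. Among regulators of P450 genes 2 of 34 were higher, against 2.85% of all genes, and 0 lower, against 4.12%. The 2 were Ppargc1a, a coactivator of fasting metabolism, at 1.67 (688 in knockout and 143 in wild type) and Nr5a2, a nuclear receptor that binds the Cyp7a1 and Cyp8b1 promoters, at 0.65 (327 in knockout and 148 in wild type). On the E14 array no gene of these 2 lists passed 1.5-fold, of 21 and 35 detectable. With 0.307% of all genes higher and 0.22% lower on that array, counts of 0 are close to these shares.

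Among the drug and xenobiotic genes, 2 of 27 were higher on the P1 array, against 2.85% of all genes, and 6 lower, against 4.12%, with a median of -0.07. With median centring 2 members of the whole family were lower. Cyp2a5 had the highest ratio of the family. It encodes the coumarin hydroxylase of mouse liver, which also oxidises nicotine and bilirubin. It read 1971 in knockout and 432 in wild-type P1 liver, a ratio of 1.59 (1.86 in the authors' deposited table), and it was the 12th highest of 12715 genes. Its ratio lay between 1.59 and 2.37 over the 7 processings. In E14 cells Cyp2a5 read 119 in knockout and 55.1 in wild type, with a ratio of 0.07. Cyp2a12, its neighbour in the same gene cluster and a steroid and bile acid hydroxylase in mouse, stood at 0.40 (2458 in knockout and 1191 in wild-type P1 liver). That is below the line in this processing, but it was past the line in 3 of the 7. It stood at 0.62 in the authors' deposited table and at 0.87 with median centring.

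The Cyp3a genes, the main drug-oxidising subfamily of liver and gut, differed among themselves. Cyp3a25 was higher, with 2433 in knockout and 893 in wild-type P1 liver, a ratio of 0.81 (1.04 in the authors' deposited table). Cyp3a13 read 2592 in knockout and 1247 in wild type (0.41), and Cyp3a11, the main adult form of mouse liver, 4822 in knockout and 2516 in wild type (0.26). Cyp3a16, a form of perinatal mouse liver, stood at -0.04, with 7777 in knockout and 4891 in wild type, whereas median centring gave 0.51 and the authors' deposited table had 0.23. Cyp3a44 was the brightest of the subfamily at 17959 in knockout and 12933 in wild type, with a ratio of -0.29 by loess, 0.04 in the authors' deposited table and 0.32 with median centring. The direction of both on P1 therefore depended on the scaling, and all 5 Cyp3a ratios were above 0 in the authors' deposited table and with median centring. In E14 cells the same genes read far lower than in P1 liver. Cyp3a44 had the highest member ratio there, 0.52, with 287 in knockout and 89.1 in wild type. Cyp3a16 followed at 0.35 (245 in knockout and 86.3 in wild type), then Cyp2a12 at 0.33 and Cyp3a11 at 0.25. Cyp3a11 at E14 read 121 in knockout and 49.1 in wild type, near the wild-type threshold of 44.3, and its ratio in the authors' deposited table was 1.21. Coding sequences within the Cyp3a, Cyp2c, Cyp2d and Cyp2b subfamilies are close, and probe sequences were not used here, so signal shared between such paralogs cannot be told apart.

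The lowest ratio of the family was that of Cyp2f2, the naphthalene-activating P450 of airway club cells and of liver. It read 232 in knockout and 439 in wild-type P1 liver, a ratio of -1.50 (-1.82 in the authors' deposited table), the 63rd lowest of 12715 genes. In E14 cells it read 128 in knockout and 63.7 in wild type, with a ratio of -0.06. Cyp2s1, an epithelial P450 known from airway and gut, stood at -0.65 on P1 with dim signals of 90.5 in knockout and 86.0 in wild type, and at -2.69 in the authors' deposited table. Cyp4b1, a fatty acid and xenobiotic hydroxylase abundant in lung, stood at -0.49, with 423 in knockout and 405 in wild type. These 3 are known lung P450s, and the lung marker sums above blank, 899 in knockout and 44893 in wild type, moved with them on this array. The part of that lung signal in the 3 ratios was not tested. Without them, 4 members remained at least 1.5-fold lower and the median of the family was 0.01.

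The other 4 lower genes lay at higher signals, except for Cyp2b9. Cyp2d26 was read at 19524 in knockout and 20685 in wild-type P1 liver, a ratio of -0.87. Cyp2e1, the ethanol- and acetone-oxidising P450, read 13863 in knockout and 14436 in wild type, a ratio of -0.82. Cyp2c40, a member of the arachidonic acid-metabolising Cyp2c group, read 2055 in knockout and 2074 in wild type, a ratio of -0.67. All 3 are bright, and median centring in place of loess left them at -0.24, -0.21 and -0.19. In the authors' deposited table they stood at -0.52, -0.50 and -0.48, all within 1.5-fold. Over the 7 processings they reached 1.5-fold in 5, 5 and 4, in the order named. Hepatocyte markers went both ways beside them, with 3 of 16 at least 1.5-fold higher and 7 lower, and a median of -0.41. Whole-number readings at the top of the range were held by 7 of the 16, and without these 3 were higher, 1 was lower and the median was 0.05. Cyp2d10 stayed within 1.5-fold at -0.51, with 4811 in knockout and 4229 in wild type, and was at 0.02 with median centring. For these bright genes the direction below 0 was kept by the 3 counted as lower, while the size rested on the scaling. Cyp2b9, a female-predominant form of adult mouse liver, was dimmer, with 313 in knockout and 356 in wild type, a ratio of -0.73 (-0.85 in the authors' deposited table). Its relative Cyp2b13 had 3 probes that disagreed on P1, at 0.30, -0.67 and -0.49.

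**Figure D3:**
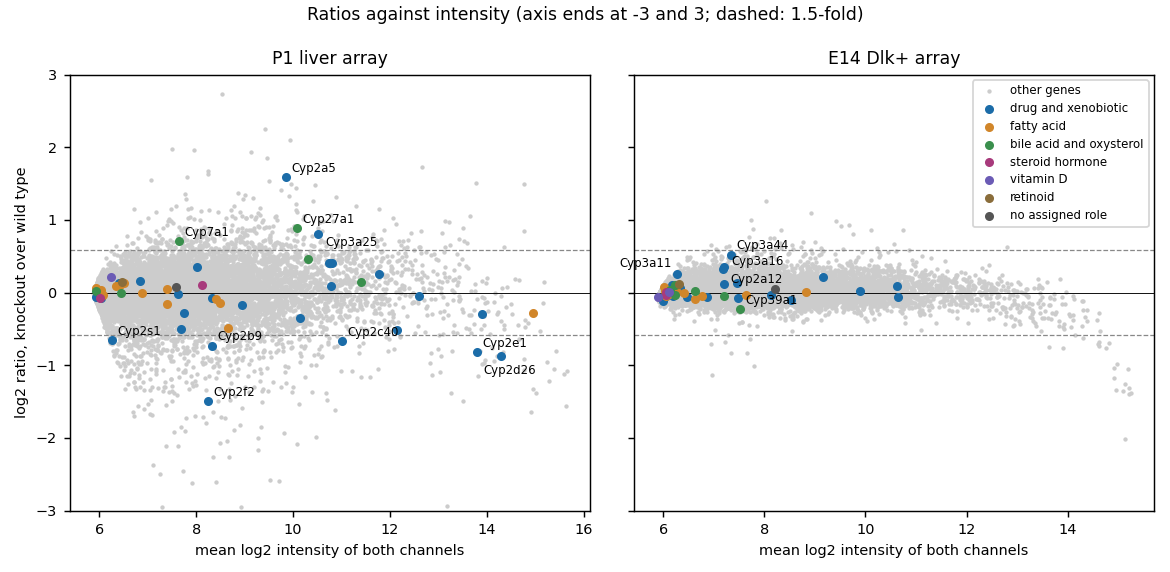
Log2 ratio of knockout over wild type against the mean log2 intensity of both channels, P1 liver at left and E14 Dlk+ cells at right, with P450 genes coloured by role, other named genes detectable in both channels in grey and dashed lines at 1.5-fold. Cyp2d26 and Cyp2e1 lie at the bright end of the P1 array, where many grey points are below 0 too, whereas Cyp2a5, Cyp27a1 and Cyp3a25 lie mid-range, and 13 genes on P1 fall outside the plotted limits of -3 and 3.

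Targets of the aryl hydrocarbon receptor, which foreign aromatic compounds activate, stayed within 1.5-fold after loess with the offset of 50. Cyp1a2 was lower by 1.5-fold or more in 3 of the 7 processings of the P1 array. Cyp1a1 read 244 in knockout and 174 in wild-type P1 liver (-0.02), and 260 in knockout and 122 in wild-type E14 cells (-0.08). Cyp1a2, its liver-restricted neighbour, read 218 in knockout and 213 in wild-type P1 liver, with a ratio of -0.49 (-0.72 in the authors' deposited table). Cyp1b1, the form of stromal and endocrine tissues, was near the thresholds on P1 at 91.3 in knockout and 55.6 in wild type. Among the remaining Cyp2c genes, Cyp2c70, which makes muricholic acids in mouse, stood at 0.36 on P1, with 356 in knockout and 196 in wild type. Cyp2c23, an arachidonic acid epoxygenase, stood at -0.34, with 1258 in knockout and 1037 in wild type. Cyp2c29, a major adult form, was barely detectable in P1 liver at 88.1 in knockout and 54.0 in wild type. Cyp2c37 (-0.17), Cyp2c39 (-0.07), Cyp2c50 (0.16) and the olfactory form Cyp2g1 (0.14) were also within 1.5-fold. Of the drug genes, Cyp2c38 and Cyp2d13 were detectable in no channel of either array, and Cyp2c55 in the knockout P1 channel only. Cyp2d22, regarded as the mouse counterpart of the human drug enzyme CYP2D6, read 383 in knockout and 280 in wild-type P1 liver, with a ratio of -0.08.

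Enzymes that work beside the P450s were also counted. Of 50 conjugation and other drug metabolism genes on P1, 14 were at least 1.5-fold higher, against 2.85% of all genes, and 3 lower, against 4.12%, with a median of 0.18 and 37 above 0. Gsta2, a glutathione transferase, stood at 1.98 (420 in knockout and 76.2 in wild type), the oestrogen sulfotransferase gene Sult1e1 at 1.55 (275 in knockout and 66.7 in wild type), and Sult1d1 at 1.33. The lower ones were Mgst3 (-1.31), Fmo2 (-0.99), an oxygenase abundant in lung, and Ugt2b1 (-0.59). Of 18 electron donor and haem genes, 1 was higher and 5 were lower, beside the same shares of all genes, with a median of -0.10. The higher one was Cyb5b, a cytochrome b5, at 0.59. The lower ones were the haem synthesis genes Ppox (-0.80), Urod (-0.78) and Alad (-0.76), the cytochrome b5 reductase gene Cyb5r3 (-0.73) and the biliverdin reductase gene Blvrb (-0.65), and 4 of 9 erythroid markers, from cells that also make haem, were lower beside them, with an erythroid median of -0.57. The part of erythroid RNA in the haem gene ratios was not tested. Por, the reductase that feeds electrons to all microsomal P450s, stood at 0.56, with 5511 in knockout and 2327 in wild type, just under the line, but past it at 0.82 by the authors' deposited table and at 1.08 with median centring. On the E14 array none of the 45 drug metabolism and 18 electron donor and haem genes detectable in both channels passed 1.5-fold. Of all genes 0.307% were higher and 0.22% lower there, so counts of 0 are close to these shares.

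No fatty acid member passed 1.5-fold after loess with the offset of 50, of 13 measured in P1 liver and 11 in E14 cells. Of all genes 2.85% were higher and 4.12% lower on P1, and 0.307% and 0.22% on E14. In other processings Cyp4f39 (0.93 in the authors' deposited table) and Cyp4b1 (-0.60 with the blank mean subtracted) passed it on P1, and Cyp2j9 (1.21 in the authors' deposited table) and Cyp4v3 (0.63 with median centring) on E14. Cyp4f39 lay at the thresholds on P1, with 90.7 in knockout (threshold 87.0) and 51.2 in wild type (threshold 50.5). Cyp2j9 read 44.9 in wild-type E14 cells (threshold 44.3). The size of these 2 ratios is therefore not reliable. Cyp4a14, an omega-hydroxylase of fatty acids and a target of PPAR alpha, had the highest signal of the family in P1 liver, at 37689 in knockout and 26224 in wild type. Its signals were whole numbers, a form seen at the top of the scanner's range, and whether they were limited there was not tested. Its ratio was -0.29 by loess, 0.09 in the authors' deposited table and 0.37 with median centring, and its direction thus depended on the scaling. The receptor gene Ppara stood at 0.49 (864 in knockout and 413 in wild type). Cyp4v3, a fatty acid hydroxylase, stood at -0.09 with 405 in knockout and 296 in wild-type P1 liver, and Cyp4f13 at 0.05 with 213 in knockout and 144 in wild type. Cyp2j5, an arachidonic acid epoxygenase, stood at -0.15, with 425 in knockout and 323 in wild type. The other members of the group detectable in both channels, Cyp2j6, Cyp2j9, Cyp2u1, Cyp4f14, Cyp4f16, Cyp4f18, Cyp4f39 and Cyp4x1, lay between -0.15 and 0.13. Cyp2j13 was detectable in no channel, and the pseudogene Cyp4f41-ps on P1 in the knockout channel only.

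Apart from Cyp17a1 and Cyp26a1, the steroid, vitamin D and retinoid members read below the median gene signals of P1 liver, 113 in knockout and 73.4 in wild type. Cyp17a1, which makes androgen precursors, was the brightest of the steroid group on P1, with 352 in knockout and 230 in wild type and a ratio of 0.10. Cyp11a1, the side-chain cleavage enzyme that begins steroid synthesis, was near the thresholds at 91.9 in knockout and 57.9 in wild type. The aldosterone synthase gene Cyp11b2 was detectable in no channel, and the adrenal gene Cyp21a1 in the knockout channel of both arrays only, at 91.1 in knockout and 50.3 in wild-type P1 liver. Of 9 adrenal cortex markers outside the family, 6 were detectable in knockout and 5 in wild-type P1 liver. The 5 were Fdx1 (2651 in knockout and 1222 in wild type), Mrap (756 and 517), Hsd3b1 (368 and 441), Scarb1 (314 and 314) and Inha (92.9 and 62.8). Star, Nr5a1 and Nr0b1 were detectable in neither channel. Cyp2r1, a vitamin D hydroxylase of liver, read 112 in knockout and 61.1 in wild type, a ratio of 0.21 (0.71 in the authors' deposited table). Neither Cyp24a1, which inactivates vitamin D, nor Cyp27b1, which activates it in kidney, was detectable on P1. Cyp26a1, which degrades retinoic acid, read 124 in knockout and 73.4 in wild-type P1 liver (0.15), and 120 in knockout and 53.4 in wild-type E14 cells (0.12). Its relative Cyp26b1 was detectable in no channel. Of 22 retinoid handling genes outside the family, 3 were lower on P1, against 4.12% of all genes, and 0 higher, against 2.85%. The lower ones were the retinal dehydrogenase gene Aldh1a1 at -1.55 (131 in knockout and 252 in wild type), its relative Aldh1a7 at -1.33 and the carrier gene Ttr at -1.65. A signal of Ttr was a whole number, the form of the top of the range, and without such genes 2 of 20 were lower. Cyp20a1 stood at 0.08 on P1 and 0.05 on E14.

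P1 liver against E14 Dlk+ cells gave far larger differences than genotype. At least 2-fold higher in P1 liver were 23 of 50 members with knockout RNA (46%, against 6.18% of 12740 genes) and 23 of 46 with wild-type RNA (50%, against 6.53% of 12335 genes). At least 2-fold lower were 0 members in both channels, against 5.97% of genes in the knockout and 4.75% in the wild-type channel. Differences of 4-fold or more were found for 18 members with knockout RNA (36%, against 2.12% of genes) and 18 with wild-type RNA (39.1%, against 2.24%). Differences of 8-fold or more were found for 13 members with knockout RNA (26%, against 0.989%) and 12 with wild-type RNA (26.1%, against 1.18%). The median difference in log2 level was 0.56 over members with knockout RNA and 0.88 with wild-type RNA, and -0.05 and -0.06 over all genes. Liver gene lists outside the family also had many genes at least 2-fold higher in P1 liver. They were 13 of 21 bile acid genes with knockout RNA and 12 of 21 with wild-type RNA. Hepatocyte markers had 5 of 16 in knockout and 8 of 16 in wild type, and other drug metabolism genes 14 of 48 and 13 of 45. The difference is therefore not particular to the P450 family. Whole liver was set against sorted cells on another array, so age, cell mix and array cannot be told apart.

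The difference was uneven over roles. At least 2-fold higher were 16 of 26 drug genes with knockout RNA, against 6.18% of all genes, and 16 of 25 with wild-type RNA, against 6.53%. Of the 6 bile acid genes 4 were at least 2-fold higher in both channels, and of fatty acid genes 2 of 12 in the knockout and 2 of 10 in the wild-type channel. The fatty acid counts, which are Cyp2j5 and the lung-abundant Cyp4b1, also lie above the shares of all genes. They leave out Cyp4a14, which was detectable on the P1 array only. Cyp2e1 had the largest difference among members detectable on both arrays, 7.10 on the log2 scale in the knockout and 8.03 in the wild-type channel. Its signals in knockout were 13863 in P1 liver and 108 in E14 cells, and in wild type 14436 in P1 liver and 49.1 in E14 cells. That is 138-fold in the knockout and 261-fold in the wild-type channel on the scale with the offset. With the blank mean subtracted it was 721-fold in the knockout and 1543-fold in the wild-type channel. Cyp4a14 was not detectable in E14 cells, at 81.1 in knockout and 40.7 in wild type, and was at least 461-fold higher in knockout and at least 526-fold higher in wild-type P1 liver. These bounds set the P1 level against the gene's own E14 level or the dimmest level measurable there, whichever was higher, which was its own level in the knockout channel.

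All 5 Cyp3a genes were more than 8-fold higher in P1 liver in both channels. The log2 differences were 6.06 in knockout and 6.88 in wild type for Cyp3a44, 5.49 in both channels for Cyp3a11, and 5.17 in knockout and 5.57 in wild type for Cyp3a16. Cyp3a25 differed by 4.81 in knockout and 3.96 in wild type, and Cyp3a13 by 3.52 in knockout and 3.25 in wild type. In E14 cells their knockout signals ranged from 105 for Cyp3a25 to 287 for Cyp3a44, beside a median gene signal of 122. Cyp2d10 differed by 4.66 in knockout and 5.29 in wild type. Bile acid genes of the classic route and Cyp39a1 showed the same direction. Cyp8b1 differed by 4.31 in knockout and 3.95 in wild type, Cyp39a1 by 4.07 in knockout and 3.70 in wild type, and Cyp27a1 by 3.41 in knockout and 2.48 in wild type. Cyp7a1 differed less, by 1.81 in knockout and 1.07 in wild type, and Cyp7b1 and Cyp46a1 were within 2-fold. Cyp2a5 differed by 4.36 in knockout and 2.84 in wild type, whereas Cyp2f2 differed by 1.08 in knockout and 2.52 in wild type. The order of the genotypes in these 2 differences is that of their P1 ratios, since the same P1 signals enter both. Of lung epithelial markers, 7 of 11 with wild-type RNA and 3 of 10 with knockout RNA were at least 2-fold higher in P1 liver. These are set against 6.53% and 6.18% of all genes, with medians of 4.10 in wild type and -0.01 in knockout. The part of that lung signal in the differences of Cyp2f2 and Cyp4b1 was not tested. At least 2-fold higher in both channels as well were Cyp2a12, Cyp2d26, Cyp2c37, Cyp2j5, Cyp4b1, Cyp17a1, Cyp2d12, Cyp1a2 and Cyp2b13. Among these Cyp2a12 had the highest in knockout, 3.62, and Cyp2d26 the highest in wild type, 4.01. The 3 probes of Cyp2b13 disagreed in knockout, at 473, 255 and 128 in P1 liver and 87.6, 254 and 114 in E14 cells. Its knockout difference thus rested mainly on the first probe. Cyp2b9 differed by 2.04 in knockout, and its E14 signal was below the wild-type threshold. Cyp2c40 differed by 0.86 in knockout and 1.56 in wild type, and passed 2-fold in wild type. Among regulators outside the family, 7 of 34 in the knockout and 5 of 35 in the wild-type channel were at least 2-fold higher in P1 liver, against 6.18% and 6.53% of all genes. At least 2-fold lower were 1 in knockout and 0 in wild type, and the medians were 0.01 in knockout and -0.02 in wild type. Nr1i3, the receptor CAR, differed by 3.12 in knockout and 2.90 in wild type, and Nr0b2, the repressor SHP, by 2.34 in knockout and 2.64 in wild type. Por differed by 2.60 in knockout and 2.05 in wild type.

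Some members did not share the difference. Cyp20a1 stood at -0.55 in knockout and -0.59 in wild type. Cyp2c70 stood at -0.22 in knockout and -0.68 in wild type, Cyp2c23 at -0.57 in knockout and -0.14 in wild type, and Cyp4v3 at -0.37 in knockout and -0.28 in wild type. Both Cyp2c23 and Cyp2c70 were already bright in E14 cells, at 2511 and 549 in knockout and 975 and 249 in wild type. The hepatoblast marker Dlk1, which was used for the sort, differed by -5.60 in knockout and -5.74 in wild type.

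**Figure D4:**
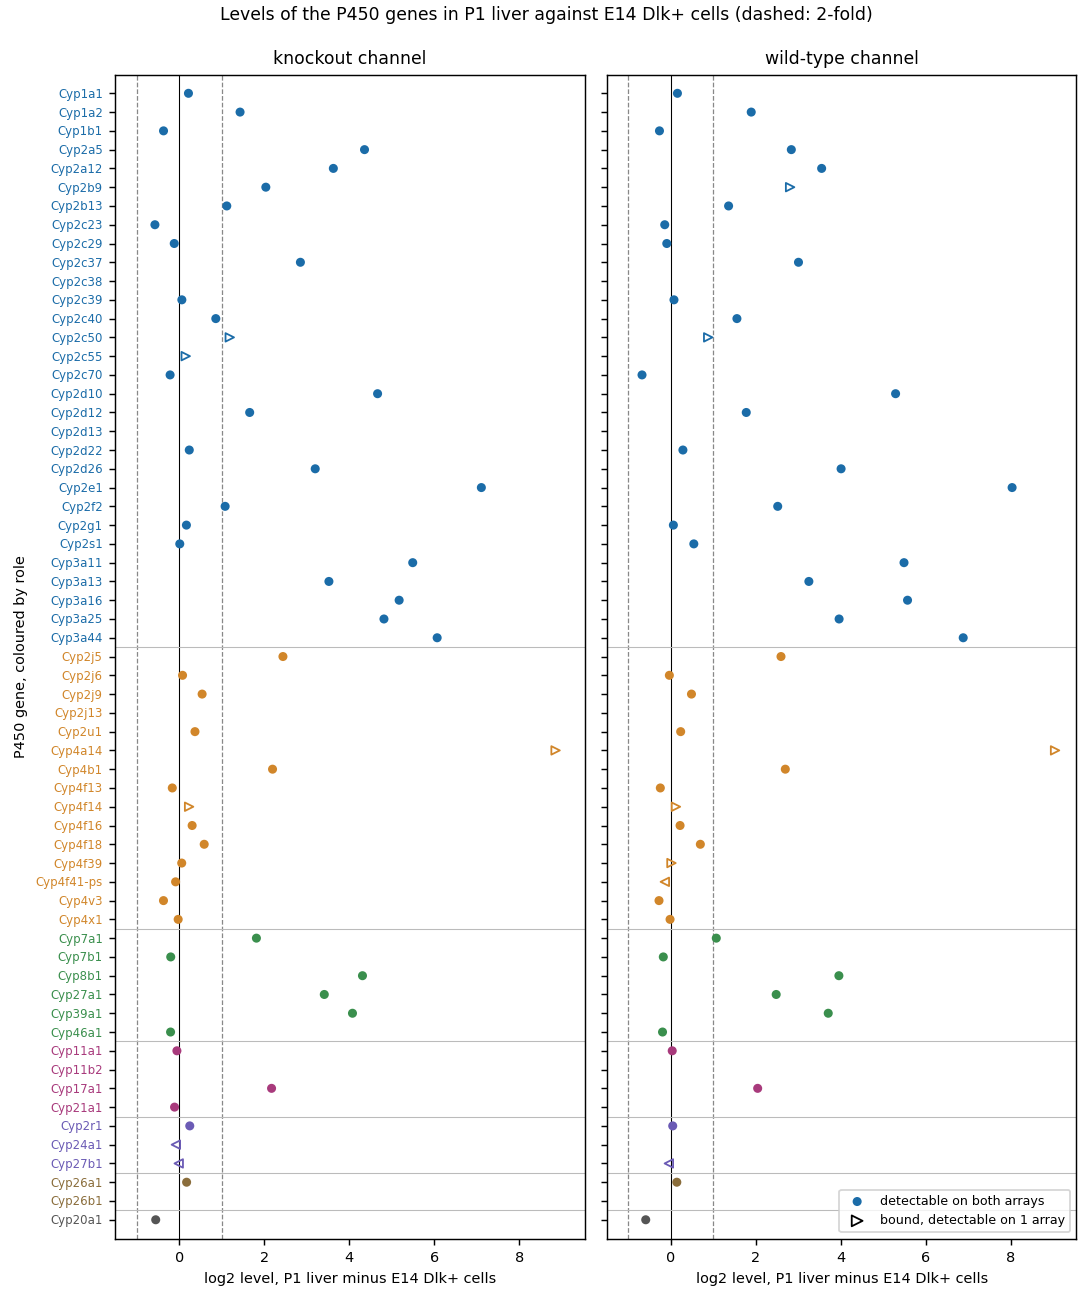
Difference in log2 level between P1 liver and E14 Dlk+ cells for each P450 gene, in the knockout channel at left and the wild-type channel at right, with dashed lines at 2-fold and triangles for bounds of genes detectable on 1 array only. No circle lies left of the lower dashed line, and Cyp4a14, Cyp2e1 and Cyp3a44 lie furthest right in both channels.

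Members that are neighbours on a chromosome were set side by side, by the order of genes in RefSeq. The cluster on chromosome 5 with Cyp3a16, Cyp3a44, Cyp3a11 and Cyp3a25 had 4 of 4 members at least 2-fold higher in P1 liver in both channels. The Cyp2c cluster on chromosome 19 had 8 members on the array, of which 1 in the knockout channel (Cyp2c37) and 2 in the wild-type channel (Cyp2c37 and Cyp2c40) were detectable on both arrays and at least 2-fold higher. In the cluster on chromosome 7 with Cyp2g1, Cyp2a5, Cyp2a12 and Cyp2f2 lay both the highest and the lowest knockout over wild-type ratio of the family on P1, 1.59 and -1.50.

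Promoters were looked at because so many members differed together between P1 liver and E14 cells. RefSeq windows of GRCm38.p6, from 250 bases before to 50 after a transcription start, were found for 45 of the 61 genes, in 52 windows. The 5 motifs were searched on both strands, with overlaps allowed. The TATA box, spelled TATAAA, places the start of transcription. Its letters were counted at any place in the window. They were in 38.5% of member windows and 13.6% of all 32851 promoters. An element bound by HNF4, a hepatocyte factor, was spelled CAAAGTCCA. It was in 9.62% of member windows, those of Cyp3a16, Cyp3a11, Cyp8b1, Cyp2c40 and Cyp2c70, and in 0.475% of all promoters. The site of C/EBP factors was spelled TTGCNNAA and was in 26.9% of member windows and 10.8% of all promoters. The core shared by many nuclear receptors, spelled AGGTCA, was in 25% of member windows and 16.3% of all promoters. The core of the aryl hydrocarbon receptor, spelled GCGTG, was in 23.1% of member windows and 32.4% of all promoters. In the 18 windows of the 17 genes at least 4-fold higher in wild-type P1 liver, those below the E14 threshold included, the TATA box was in 55.6%, the nuclear receptor core in 44.4% and the aryl hydrocarbon receptor core in 0%. In the other 34 member windows these shares were 29.4%, 14.7% and 35.3%. The TATA shares are not limited to boxes near the start. In the first set the letters lay at -128 in Cyp2j5, -126 in Cyp3a16, -122 in Cyp3a44 and -234 in Cyp3a11, and elsewhere between -39 and -29. In the other set they ranged from -139 in Cyp26b1 to 41 in Cyp2c40. The C/EBP site was in 27.8% of the first set and 26.5% of the other, where all windows of Cyp4f14 fell. The HNF4 element was in 16.7% (3 windows) and 5.88% (2 windows). A match is a description of the letters in the window, not a binding site.

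The windows of 5 genes that the results turn on are printed with these motifs in capitals. Cyp2e1 and Cyp8b1 are shown for their large difference between P1 liver and E14 cells, Cyp2a5 and Cyp27a1 as the members with the highest ratios in the P1 knockout, and Cyp2f2 as the lowest. Positions are counted from the transcription start, with bases before it negative, and name the first base of the match.
Cyp2e1, chr7:140763569-140763868, plus strand: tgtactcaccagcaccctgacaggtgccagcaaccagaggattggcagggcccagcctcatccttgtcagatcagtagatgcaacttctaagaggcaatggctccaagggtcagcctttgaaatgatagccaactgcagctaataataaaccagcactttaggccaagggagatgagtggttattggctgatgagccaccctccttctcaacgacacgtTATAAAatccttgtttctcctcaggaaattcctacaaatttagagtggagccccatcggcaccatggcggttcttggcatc
Cyp8b1, chr9:121916256-121916555, minus strand: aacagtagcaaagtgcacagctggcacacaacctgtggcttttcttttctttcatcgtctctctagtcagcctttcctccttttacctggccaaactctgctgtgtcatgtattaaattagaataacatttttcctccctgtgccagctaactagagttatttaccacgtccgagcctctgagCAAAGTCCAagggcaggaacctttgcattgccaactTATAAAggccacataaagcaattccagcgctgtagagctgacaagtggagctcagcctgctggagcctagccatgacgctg
Cyp2a5, chr7:26835089-26835388, plus strand: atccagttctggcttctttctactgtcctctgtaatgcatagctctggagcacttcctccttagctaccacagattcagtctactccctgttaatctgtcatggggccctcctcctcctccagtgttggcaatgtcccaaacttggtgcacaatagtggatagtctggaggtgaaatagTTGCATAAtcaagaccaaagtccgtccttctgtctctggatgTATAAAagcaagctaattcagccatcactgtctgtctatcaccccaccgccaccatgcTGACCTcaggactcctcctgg
Cyp27a1, chr1:74713285-74713584, plus strand: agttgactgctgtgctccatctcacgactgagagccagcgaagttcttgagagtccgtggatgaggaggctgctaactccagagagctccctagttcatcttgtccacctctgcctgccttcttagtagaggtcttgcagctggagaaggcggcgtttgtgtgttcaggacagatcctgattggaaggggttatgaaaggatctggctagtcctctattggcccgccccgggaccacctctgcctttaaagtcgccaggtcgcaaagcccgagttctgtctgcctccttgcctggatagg
Cyp2f2, chr7:27119705-27120004, plus strand: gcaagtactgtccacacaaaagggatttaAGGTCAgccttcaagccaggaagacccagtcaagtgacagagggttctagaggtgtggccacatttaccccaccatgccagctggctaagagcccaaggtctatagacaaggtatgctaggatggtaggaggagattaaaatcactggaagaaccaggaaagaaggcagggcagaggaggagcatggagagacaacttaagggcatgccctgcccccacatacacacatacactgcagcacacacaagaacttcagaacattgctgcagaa
Cyp2e1 held only the TATA box of the 5 motifs, at -31. Cyp8b1 held the HNF4 element at -67 and the TATA box at -31. Cyp2a5 held the C/EBP site at -71, the TATA box at -29 and, past the start, the receptor core on the other strand at 30. Cyp2f2 held the receptor core at -221 and Cyp27a1 none of the 5. The receptor core was in the windows of both Cyp2a5 and Cyp2f2, at different places. A link between these letters and the ratios was not tested.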

How the data were processed

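Per the labels' protocols, RNA was amplified and then dye-coupled. Scanner intensity values of each spot, not normalised, were deposited for Cy3 and Cy5, per the file headers. The values in the authors' deposited table are log2 ratios, knockout over wild type, with the blank mean subtracted and centred on the array median, as found by setting it against the scanner values. Each array had 27456 spots, 2736 of them blank, and 16631 of 23473 gene probes had a symbol. Symbols were updated with RefSeq.

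With limma 3.58.1 in R 4.3.3, spot signals were corrected by normexp with an offset of 50, without the local background, which followed the spot signal, and normalised within arrays by loess. Probes of a gene were averaged. Channel levels for P1 against E14 had Aquantile scaling between arrays, and a bound takes the dimmer side at the lowest signal above the threshold, or at its own signal where that was higher. Blank means were taken after 5% of spots was trimmed at each end. Processing was checked on simulated data.

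Members and lists were chosen with earlier results of these data known. Described with full values were members past 1.5-fold, the 10 brightest of each array, 27 of 29 genes fixed by name that were on the array, and the 5 highest and 5 lowest in P1 against E14, 40 genes in all. Other members named were chosen after their values were seen. Alternatives changed background, offset, normalisation, detection, probe and fold rules.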

Additional observations from a re-analysis of the deposited data

Results flagged for a closer look

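Cyp3a44 drew attention because its knockout over wild-type ratio ran opposite ways in P1 liver and E14 cells. Its log2 ratio was -0.29 in P1 liver and 0.52 in E14 cells, a P1 minus E14 difference of -0.81. In the authors' deposited table both were above 0, at 0.04 in P1 liver and 0.79 in E14 cells, and with median centring the P1 ratio was 0.32. With 1 array each, the difference was not tested.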

How the results depend on the processing

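No paired analysis was possible because each comparison has 1 array. On P1 the count of members at least 1.5-fold higher (4) was 9 in the authors' deposited values, 9 with median centring and 1 at 2-fold, and the count lower (6) was 2 with median centring and 1 at 2-fold. On E14 the count higher (0) was 4 in the authors' deposited values, 3 with the blank mean subtracted before loess, 1 with an offset of 16 and 9 with median centring. Under that centring the E14 median was 0.29 for all genes and 0.03 for members. The E14 count lower (0) was 1 in the authors' deposited values and 2 with the blank mean subtracted. Members at least 2-fold lower in P1 liver than in E14 cells (0) were 2 in the knockout and 2 in the wild-type channel with the blank mean subtracted and 75th percentile scaling. The counts higher in P1 liver (23 in both channels) stayed within 1.5 times under every alternative run. The count of 4 lower P1 members without Cyp2f2, Cyp2s1 and Cyp4b1 was chosen after the data were seen.

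Median centring moved the median of all genes to 0.05 on P1 and 0.29 on E14, and it raised Cyp4a14 by 0.65, Cyp2d26 by 0.63 and Cyp2e1 by 0.61 on P1. Over 7 processings 29 of 51 members kept their sign on P1 and 22 of 48 on E14. Probes of 1 gene differed with an SD of 0.23 on P1 and 0.12 on E14 (139 genes each). Signals near the threshold, as for many E14 members, limit the size of a ratio.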
